A study of Arabidopsis thaliana with 4 samples.

Results

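Cytochrome P450 and glutathione transferase genes were followed in Arabidopsis thaliana seedlings, taken whole after 4 days of growth in the dark. The members were the 36 probe sets, of 22810 on the Affymetrix ATH1 array, whose platform annotation named exactly 1 gene with a P450 symbol (CYP, 2 or 3 digits and a letter, 23 probe sets) or a glutathione transferase symbol (GSTF, GSTU, GSTL, GSTT, GSTZ or GST with a number, 13 probe sets). The rule used symbols alone and no measured value, but it was set with earlier results of these data known. Each of the 36 probe sets stood for a different gene. The mutant carried the ein3-1 and eil1-1 alleles, in the genes AT3G20770 and AT2G27050, and the reference plants were wild type (WT, Col-0 per the series title). There were 2 arrays per genotype, and both genotypes shared cold treatment, light for germination induction, MS medium and darkness. Both genes encode transcription factors that carry the ethylene signal in the nucleus, and, per the labels, the mutant builds up more protochlorophyllide. The question is which of these enzyme genes differ in expression when both factors are mutated. In RNA of whole seedlings, fewer cells that hold a transcript and less of it per cell cannot be told apart.

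Cytochrome P450s are heme-thiolate enzymes, mostly anchored in the endoplasmic reticulum, that insert an oxygen atom from molecular oxygen into hormones, lipids, phenylpropanoids and defence compounds. Glutathione transferases join the thiol of glutathione to electrophilic compounds, or use glutathione to reduce them. The tau (GSTU) and phi (GSTF) classes are plant classes known for xenobiotic and stress responses, whereas lambda enzymes (GSTL) carry a catalytic cysteine and act as thiol transferases. The CYP71B subfamily and the tau class both lie largely in tandem arrays of neighbouring copies in Arabidopsis. Per the submitters' processing notes the deposited values are MAS5 signals, a linear intensity per probe set. Here they were put on a log2(intensity + 3) scale and quantile normalised, and values below are on that scale unless called deposited. A difference is ein3 eil1 minus WT, given with the standard error (SE) of the limma fit over all tested probe sets, and n = 2 arrays per genotype throughout.

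The arrays fell into pairs. In each genotype the title of 1 array carries a biological replicate mark and the other does not, and array pair 1 here is the unmarked array of each genotype and pair 2 the marked one. The 27 Bacillus control probe sets differed by -1.52 in mean level between pair 2 and pair 1, against at most 0.095 inside a pair, so differences are also given within each pair. Over 14031 tested probe sets the difference between replicates in ein3 eil1 correlated with that in WT at r = 0.43. EIN3 was at 6.51 and 7.22 in ein3 eil1, against 9.73 and 10.24 in WT (difference -3.12, SE 0.35, limma adjusted p = 0.0138, and 0.0521 without the filter on dim probe sets). Of the tissue markers, few had a named probe set. The light-harvesting genes LHCB4.1 and LHCB4.2 summed to deposited signals of 15243.7 and 22162.5 in ein3 eil1 and 12343.7 and 13861.7 in WT, and the root-expressed gene PYK10 had 8348.1 and 13740.8 in ein3 eil1 and 8002.5 and 9737.1 in WT. None of these 3 genes passed the test, and neither did the stomatal gene SPCH (-0.24) or the germination marker ICL (-0.02). Both changed sign between array pairs 1 and 2, with -1.25 and 0.78 for SPCH and -0.45 and 0.41 for ICL. Deposited signals of ICL were 1946.3 and 1963.2 in ein3 eil1 and 2615.2 and 818.2 in WT, so the WT arrays were far apart. The root hair genes EXPA7 (-0.96) and EXPA18 (0.48) and the stomatal genes MUTE (0.17) and FAMA (0.05) were too dim to be tested.

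Of the 36 members, 17 were bright enough to be tested, meaning that they reached the 40th percentile of their array on at least 2 of the 4 arrays. These were 8 of the 23 P450 and 9 of the 13 glutathione transferase probe sets. None of the 17 passed the limma threshold (adjusted p of 0.05), where 0.292% of all tested probe sets did. At an unadjusted p under 0.05 there were 2, GSTU25 and CYP71B29, or 11.8% of the tested members, where all tested probe sets gave 6.14%. The tested glutathione transferases had a median difference of 0.18, with 8 of 9 above 0. The tested P450s had a median difference of -0.26, with 6 of 8 below 0. The class median per array had an SD between replicates of 0.19 for the transferases and 0.27 for the P450s. Neither median difference was larger than that spread. Of the transferases above 0, GSTU18, GSTU20, GSTL3, GSTU26 and GSTF4 turned sign in some fits with 1 array left out. Of the P450s below 0, CYP71B5 and CYP71B34 did so. Over all tested probe sets 7169 of 14031 were above 0, and the median was 0.0092. Under the deposited scaling, which shifts that median to 0.40, the P450 median turned to 0.12, or -0.28 relative to the shift. The glutathione transferase median turned to -0.09 without WT replicate 1, so its sign rests on that array. The medians within array pairs 1 and 2 were 0.20 and 0.31 for the transferases and -0.12 and -0.36 for the P450s.

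**Figure D1:**
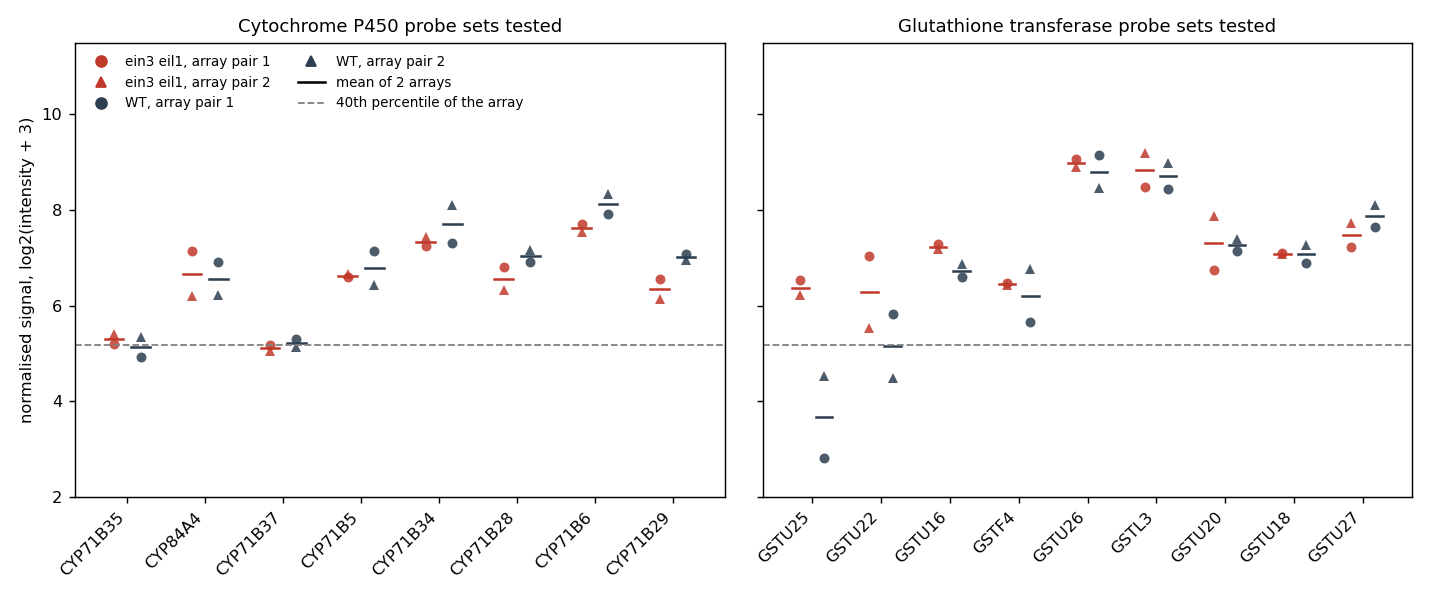
Normalised log2 signal of the 8 P450 (left) and 9 glutathione transferase (right) probe sets that were tested, with ein3 eil1 in red left of WT in dark blue, circles for array pair 1, triangles for array pair 2, short lines for the mean of 2 arrays and a dashed line at the 40th percentile of the array. GSTU25 has both ein3 eil1 arrays above the dashed line and both WT arrays below it, whereas in GSTU26, GSTL3, GSTU20 and GSTU18 the genotypes overlap.

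GSTU25 (AT1G17180) had the widest gap between genotypes among the tested members. It is a tau class enzyme known for conjugating the explosive TNT and for induction by xenobiotics. Its deposited signals were 78.1 and 106.1 in ein3 eil1, against 3.2 and 20.2 in WT. On the normalised scale it was at 6.53 and 6.21 in ein3 eil1, against 2.81 and 4.52 in WT. Both mutant arrays lay above both WT arrays, and the WT arrays were far apart from each other. The difference was 2.70 (SE 0.64, 95% interval 1.23 to 4.18), with 3.72 in array pair 1 and 1.69 in pair 2. It did not pass the test over all probe sets (limma adjusted p = 0.244). With the array pair as a block the adjusted p was 0.0265, in a fit with only 1 residual degree of freedom that called 2.79% of all tested probe sets. GSTU25 was tested only through its 2 mutant arrays, since both WT signals lay below the 40th percentile, so the size of the difference depends on the pseudocount (2.98 with 1 and 1.84 with 16).

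The call on GSTU25 depended on the setting. It passed under the deposited scaling (2.97, adjusted p = 0.00323), without WT replicate 1 (1.85, adjusted p = 0.0397) and without WT replicate 2 (3.56, adjusted p = 0.00109). In the fits without a WT array the spread of the gene comes from the 2 mutant arrays alone (SD 0.23), and the wider WT spread (SD 1.21) is left out. It did not pass without ein3 eil1 replicate 1 (2.54, adjusted p = 0.70) or without ein3 eil1 replicate 2 (2.86, adjusted p = 0.25). All of its 12 alternatives that gave a value kept a positive difference, between 1.84 and 3.56. The filter that asks for the 40th percentile on all 4 arrays removed the probe set. On the list of 14 wounding and oxidative stress genes, 3 were named and 2 tested. The cold-induced gene COR15A had deposited signals of 172.7 and 170.8 in ein3 eil1, against 2.9 and 2.9 in WT. It entered the test through its mutant arrays alone, and the size of its difference (4.65, adjusted p = 0.0152, and 0.0705 without the filter) depends on the pseudocount because the WT signals lie near it. The zinc-finger gene ZAT10 differed by 0.31. The summed deposited signal of the 3 was 209.0 to 233.3 in ein3 eil1 and 41.4 to 50.5 in WT. Most of this gap was that of COR15A. ZAT10 was at deposited signals of 48.2 and 36.1 in ein3 eil1 and 36 and 21.8 in WT. The defence gene PDF1.2 was at 12.4 and 2.1 in ein3 eil1 and 2.5 and 25.8 in WT. In both ZAT10 and PDF1.2 the genotypes overlapped on the normalised scale. The part of stress in the GSTU25 values was not tested.

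GSTU26 (AT1G17190) is the immediate neighbour of GSTU25 and another tau class gene. It was at 9.07 and 8.91 in ein3 eil1, against 9.15 and 8.46 in WT. The genotypes overlapped, with a difference of 0.18 (SE 0.32, 95% interval -0.56 to 0.93). Both GSTU26 and GSTU25 have probe sets with the plain suffix _at, as all 36 members do, which Affymetrix gives to probe sets designed for a single transcript. Whether related copies add signal to a probe set was not tested.

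GSTU22 (AT1G78340) came next among the transferases. It was at 7.03 and 5.54 in ein3 eil1, against 5.83 and 4.48 in WT. In both genotypes the array of pair 2 was lower by more than 1 log2 unit, so the genotypes overlap although the mutant array was the higher one in each pair. The difference was 1.13 (SE 0.60, limma adjusted p = 0.932), with 1.21 in array pair 1 and 1.06 in pair 2. With the pair as a block the adjusted p was 0.10. GSTU22 and GSTU25 were the 2 members, of the 9 tested transferases, whose mean difference was at least 2-fold, with the same sign in both array pairs. That size rule was met upward by 2.02% and downward by 1.95% of all tested probe sets, and by none of the 8 tested P450s.

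GSTU22 sits in a run of 4 neighbouring tau class members, GSTU23, GSTU22, GSTU21 and GSTU20, with at most 2 other genes between consecutive ones in the RefSeq TAIR10.1 order. GSTU20 (AT1G78370), which encodes an enzyme known to interact with the jasmonate-conjugating enzyme FIN219/JAR1, was at 6.74 and 7.88 in ein3 eil1, against 7.13 and 7.40 in WT. The WT arrays lay between the mutant arrays, and the difference was 0.04 (SE 0.39, 95% interval -0.85 to 0.94). GSTU23 and GSTU21 were too dim to be tested. The deposited signals of GSTU23 were 16.4 and 14.6 in ein3 eil1 and 11.3 and 10.3 in WT. Those of GSTU21 were 0.6 and 7.8 in ein3 eil1 and 1.5 and 3.7 in WT. Within this run the differences thus ranged from 0.04 to 1.13.

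GSTU16 (AT1G59700) was, with GSTU25, 1 of the 2 tested transferases in which both mutant arrays lay above both WT arrays. It was at 7.29 and 7.18 in ein3 eil1, against 6.60 and 6.87 in WT. Here the replicates of each genotype lay close together, and the difference was 0.50 (SE 0.28, 95% interval -0.13 to 1.14, limma adjusted p = 0.956). Non-overlap upward was met by 16.5% of all tested probe sets, and 2 of 9 tested transferases is 22.2%. That share includes GSTU25, which was tested only through its mutant arrays. Its near neighbour GSTU15 was too dim to be tested, with deposited signals of 1.2 and 16.6 in ein3 eil1 and 1.8 and 5.6 in WT.

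GSTU27 (AT3G43800) was the 1 tested transferase with a negative difference. It was at 7.23 and 7.73 in ein3 eil1, against 7.65 and 8.10 in WT (difference -0.39, SE 0.32). The mutant array was lower by a similar amount in each pair, -0.42 and -0.36, although the genotypes overlap. GSTU18 (AT1G10360) was at 7.10 and 7.08 in ein3 eil1, against 6.90 and 7.27 in WT. Its difference was 0.01 (SE 0.28), with an interval from -0.64 to 0.66.

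The classes other than tau had 1 member each. GSTF4 (AT1G02950), of the phi class, was at 6.47 and 6.43 in ein3 eil1, against 5.65 and 6.76 in WT (difference 0.24, SE 0.40). The mutant arrays fell between the WT arrays, and the sign differed between the pairs (0.82 and -0.33). GSTL3 (AT5G02790), of the lambda class, was at 8.47 and 9.20 in ein3 eil1, against 8.43 and 8.98 in WT (difference 0.13, SE 0.35). In both genotypes pair 2 was higher, and the genotypes overlap. No theta or zeta class probe set met the naming rule.

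**Figure D2:**
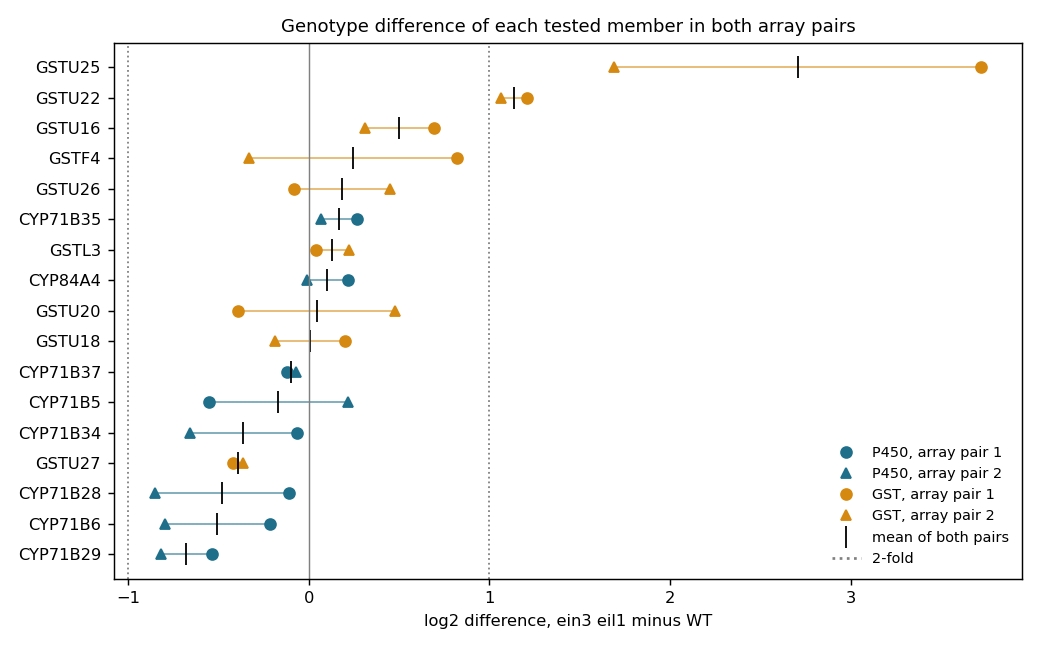
Log2 difference, ein3 eil1 minus WT, of the 17 tested members, with circles for array pair 1, triangles for array pair 2, a black tick for the mean of both pairs, blue for P450s, orange for glutathione transferases and dotted lines at 2-fold. GSTU25 and GSTU22 lie beyond 2-fold in both pairs, and 6 of the 8 P450s have a mean below 0 (their median of -0.26 turned to 0.12 under the deposited scaling).

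Among the P450s, CYP71B29 (AT1G13100) had the most negative difference of those tested. It was at 6.55 and 6.14 in ein3 eil1, against 7.09 and 6.95 in WT. Both mutant arrays were below both WT arrays, with a difference of -0.68 (SE 0.29, limma adjusted p = 0.812, unadjusted p = 0.0492), and -0.53 and -0.82 within the pairs. CYP71B28 (AT1G13090), its immediate neighbour, was at 6.80 and 6.32 in ein3 eil1, against 6.91 and 7.17 in WT. It was also lower on both mutant arrays, with a difference of -0.48 (SE 0.30, adjusted p = 0.992). The deposited scaling left CYP71B29 at -0.30 and CYP71B28 at -0.09, against the shift of 0.40 over the whole table.

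The third member of this run, CYP71B27 (AT1G13070), is a transcribed pseudogene in RefSeq and was too dim to be tested. Its deposited signals were 3.9 and 15.0 in ein3 eil1, against 28.6 and 22.2 in WT. All 3 genes of the run had both mutant arrays below both WT arrays, an order met by 15.1% of all tested probe sets and by 17.4% of those below the filter. In a fit without the filter on dim probe sets, CYP71B27 differed by -1.56 (unadjusted p = 0.0369, adjusted p = 0.805).

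CYP71B6 (AT2G24180) acts on indole-3-acetonitrile in the pathway to indole-3-carboxylic acid, a defence compound. It was at 7.70 and 7.54 in ein3 eil1, against 7.92 and 8.33 in WT. Both mutant arrays were below both WT arrays (difference -0.50, SE 0.29, 95% interval -1.18 to 0.17, limma adjusted p = 0.968). Together with CYP71B28 and CYP71B29 that makes 3 of 8 tested P450s, or 37.5%, where 15.1% of all tested probe sets had both mutant arrays below both WT arrays. None of the tested P450s had both mutant arrays above. These orders are those of the normalised scale, and in deposited signals the genotypes of CYP71B6 and CYP71B28 overlapped. Deposited signals of CYP71B6 were 181.2 and 276.1 in ein3 eil1 and 214.9 and 261.6 in WT. Under the deposited scaling CYP71B6 differed by -0.08, against the shift of 0.40 of all tested probe sets. The other member of the list of glucosinolate and indole P450s, CYP79A2, makes phenylacetaldoxime from phenylalanine and was near the bottom of every array, with deposited signals of 0.7 and 1.4 in ein3 eil1 and 2.0 and 1.5 in WT.

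CYP84A4 (AT5G04330), an enzyme of arabidopyrone synthesis that is related to ferulate 5-hydroxylase, was the one tested P450 outside the CYP71B subfamily. It was at 7.13 and 6.20 in ein3 eil1, against 6.92 and 6.21 in WT. The arrays parted by pair and not by genotype, and the difference was 0.10 (SE 0.40, 95% interval -0.81 to 1.01).

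The longest run of neighbours held 11 CYP71B members, from CYP71B16 to CYP71B37, with at most 6 other genes between consecutive members. Of these, 3 were tested. CYP71B34 (AT3G26300) was at 7.24 and 7.44 in ein3 eil1, against 7.31 and 8.09 in WT (difference -0.36, SE 0.34). CYP71B35 (AT3G26310) was at 5.19 and 5.40 in ein3 eil1, against 4.92 and 5.34 in WT (difference 0.17, SE 0.45). CYP71B37 (AT3G26330) was at 5.18 and 5.05 in ein3 eil1, against 5.31 and 5.12 in WT (difference -0.10, SE 0.45). CYP71B35 and CYP71B37 lay close to the 40th percentile, which was at 5.18 on the normalised scale, and in all 3 the genotypes overlapped.

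CYP71B36, which lies between CYP71B35 and CYP71B37 with no gene in between, was far dimmer. Its deposited signals were 3.4 and 1.2 in ein3 eil1, against 0.5 and 7.1 in WT. Probe sets differ in how well they bind, so signals of different genes order the probe sets and not the transcripts. The other 7 members of the run, CYP71B16, CYP71B21, CYP71B22, CYP71B23, CYP71B24, CYP71B25 and CYP71B26, were also below the filter. Among all 11, the differences ranged from -0.83 (CYP71B22) to 0.97 (CYP71B25).

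CYP71B25 was at deposited signals of 11.3 and 9.6 in ein3 eil1, against 2.3 and 4.3 in WT. CYP71B23 was at 20.0 and 50.3 in ein3 eil1, against 15.9 and 22.1 in WT. On the normalised scale the mutant arrays lay above the WT arrays in both genes. For CYP71B23 the margin was narrow, with the lower mutant array at 4.66 and the higher WT array at 4.65, and its deposited signals overlapped. Neither gene passed in the fit without a filter (adjusted p = 0.958 and 1.0). CYP71B16 and CYP71B22 showed opposite signs in the array pairs, with 0.95 and -1.71 for CYP71B16 and 0.23 and -1.88 for CYP71B22.

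A shorter run held CYP71B5, CYP71B30P and CYP71B31. CYP71B5 (AT3G53280) was at 6.59 and 6.65 in ein3 eil1, against 7.14 and 6.44 in WT (difference -0.17, SE 0.32). The mutant arrays fell between the WT arrays. CYP71B31, an enzyme known for oxidising linalool in flowers, was below the filter, with deposited signals of 6.2 and 2.3 in ein3 eil1 and 0.5 and 0.9 in WT. CYP71B30P had 1.3 and 16.1 in ein3 eil1 and 1.6 and 2.1 in WT, so its mean difference of 0.79 came from 1 mutant array.

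**Figure D3:**
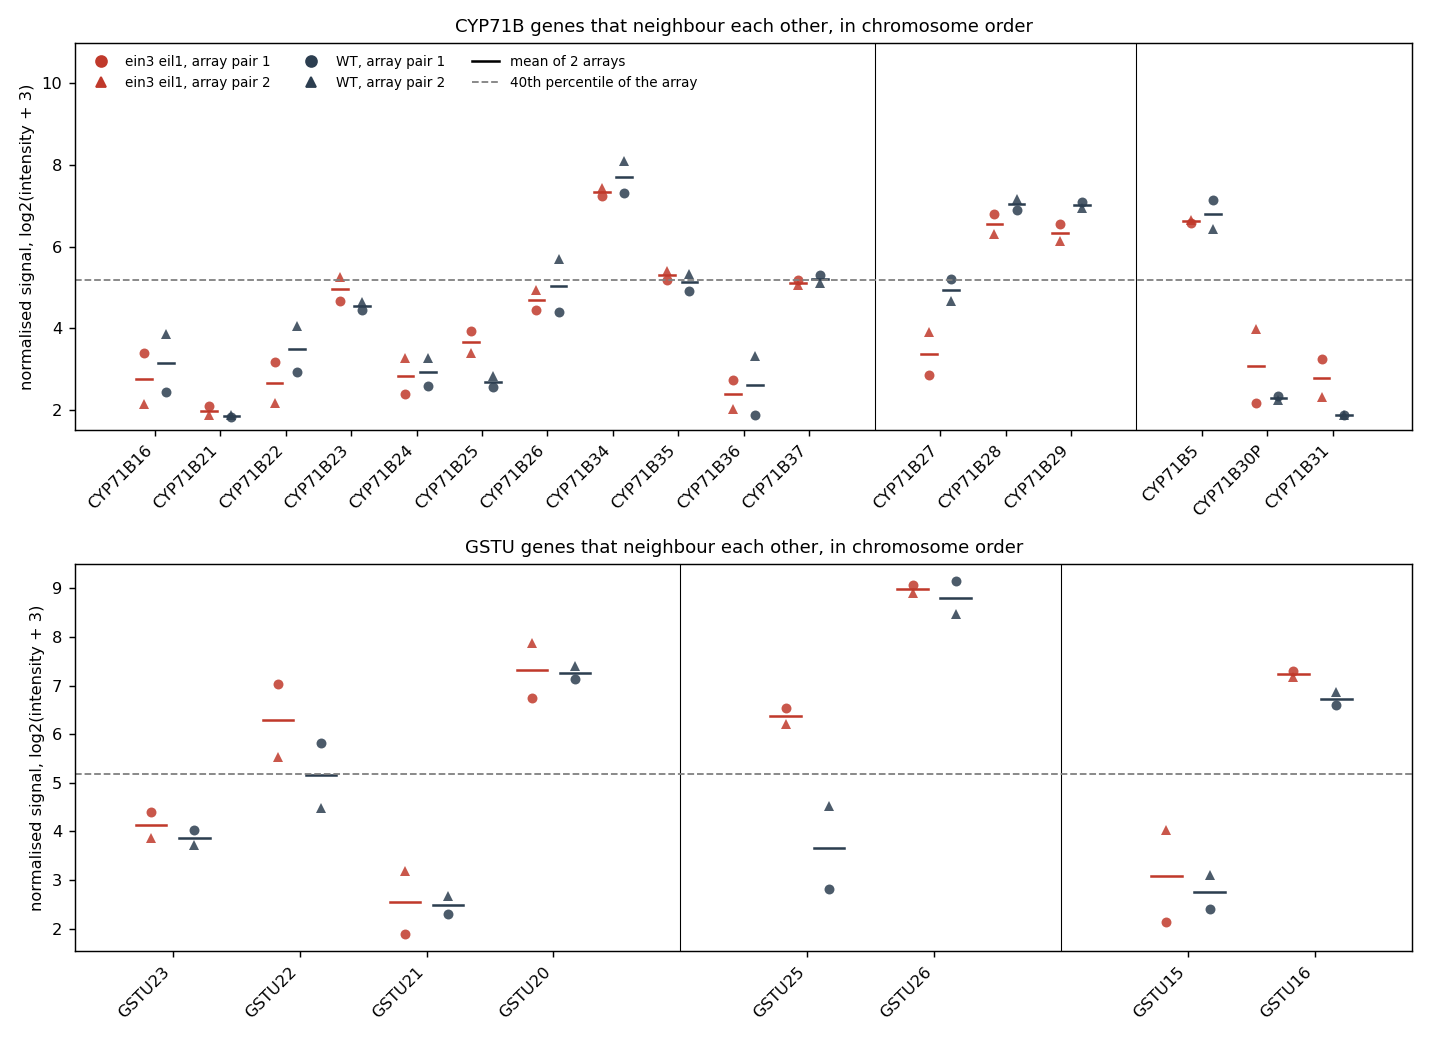
Normalised log2 signal of neighbouring CYP71B genes (top) and GSTU genes (bottom) in chromosome order, with ein3 eil1 in red left of WT in dark blue, circles for array pair 1, triangles for array pair 2, vertical lines between separate runs and a dashed line at the 40th percentile of the array. Bright and dim probe sets lie side by side in the runs, GSTU25 and GSTU26 differ in their genotype gap, and CYP71B27, CYP71B28 and CYP71B29 have the mutant arrays below the WT arrays, as do 17.4% of the probe sets below the filter and 15.1% of those tested.

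The 19 members below the filter, 15 P450s and 4 transferases, had deposited signals from 0.4 to 50.3. On the normalised scale, 4 of these had both mutant arrays above both WT arrays and 3 had both below. Of all probe sets below the filter, 16.3% and 17.4% did so. In the fit without a filter, 3 of the 19 (15.8%) had an unadjusted p under 0.05, where 5.94% of all probe sets below the filter did. None passed after adjustment, as for all probe sets below the filter (0%), and the lowest adjusted p among the 19 was 0.724. GSTU28 (AT1G53680), another tau class gene, had deposited signals of 17.9 and 22.7 in ein3 eil1, against 1.4 and 7.5 in WT (difference 1.61, adjusted p = 0.784). CYP78A9 (AT3G61880), of a subfamily that promotes organ and seed growth, had 6.2 and 2.4 in ein3 eil1, against 16.8 and 19.5 in WT. Its difference was -1.71 (unadjusted p = 0.0197, adjusted p = 0.724), with -1.27 and -2.14 within the pairs. At such signals a difference on the log scale depends strongly on the pseudocount. CYP51G2, a transcribed pseudogene in RefSeq that is related to sterol 14-demethylase, was at 7.7 and 27.3 in ein3 eil1 and 10.6 and 22.7 in WT. CYP71B38 was at 11.7 and 17.6 in ein3 eil1, against 16 and 16.3 in WT. These deposited signals overlapped, although on the normalised scale its mutant arrays lay below the WT arrays.

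Other genes of the pathways were few. Of 19 transferases listed for known stress or hormone roles, GSTU20 and GSTU25 were the 2 measured by a named probe set. Of 21 entries on glutathione metabolism, 1 was tested, the glutathione reductase gene GR (AT3G54660), with a difference of -0.08 (limma adjusted p = 1.0). Of 28 entries on other glucosinolate steps, 2 were tested and none passed. UGT74B1, the glucosyltransferase of glucosinolate core synthesis, had deposited signals of 407.0 and 723.0 in ein3 eil1 and 311.0 and 134.5 in WT. Its difference was 0.99 (adjusted p = 0.728), with 0.39 and 1.59 within the pairs. Of 22 entries on other phenylpropanoid steps, HCT, the shikimate hydroxycinnamoyl transferase, was the tested one and differed by 0.07. The lists of P450 electron donors and of other brassinosteroid steps could not be followed, since none of their genes was named by a probe set in the annotation used. The same holds for the P450s of brassinosteroid, of gibberellin, abscisate, cytokinin and strigolactone, of oxylipin and of fatty acid metabolism.

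**Figure D4:**
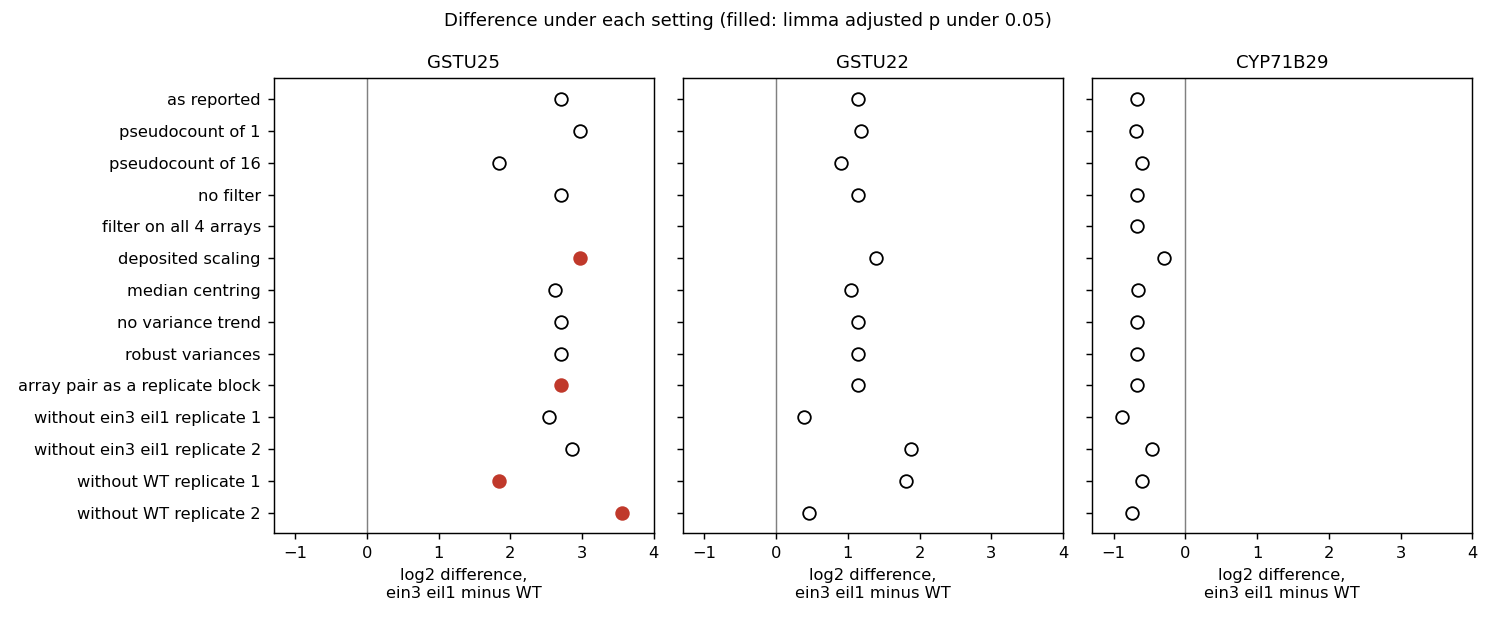
Log2 difference, ein3 eil1 minus WT, of GSTU25, GSTU22 and CYP71B29 as reported and under 13 other settings, with filled red points where the limma adjusted p was under 0.05. GSTU25 passed under 4 settings, 2 of which leave out a WT array and so take its spread from the mutant arrays, GSTU22 and CYP71B29 under none, and no point of the 3 genes changed sign.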

How the data were processed

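RNA of whole seedlings was measured on 4 ATH1 arrays, 2 per genotype, with genotypes taken from the labels. The authors deposited linear intensity values, 1 for each probe set on each array. The submitters' processing notes name MAS5, and its scaling target is not given in the sources used here. Trimmed means (2% off each end) ran from 140.7 to 249.3, so the arrays did not share a scale. From these values a pseudocount of 3, log2 and quantile normalisation were applied. The 64 control probe sets were left out, and 14031 probe sets that reached their array's 40th percentile on at least 2 arrays entered 1 limma fit (version 3.58.1, R 4.3.3; lmFit and eBayes, trended prior variance, two-sided tests, Benjamini-Hochberg over all tested probe sets, threshold 0.05). The fit was tested on simulated data with independent noise on each array. Those data held no array pair effect, so they cannot check the fit where arrays vary by pair. The number of arrays limits the precision, and apart from the replicate mark in 2 titles nothing says that plants were grown separately, so p-values reflect only how these samples vary, some of which may be technical.

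Probe sets were named from the platform annotation, which paired 13513 with 1 gene and 503 with several and did not list 8730. Gene order came from RefSeq (TAIR10.1), and members with at most 10 other genes between them formed a run. The members, gene lists and settings were chosen with earlier results of these data known. The naming rule took members past the threshold, the 12 widest non-overlapping gaps each way, the 10 brightest, list members and their neighbours, and the text also names the remaining ones. In the pathway lists it names genes past the threshold or, with none, the 2 with the largest absolute difference. Alternatives changed the pseudocount, the filter, the scaling or the variance model, added the array pair as a block, or left out each array in turn, with the normalised values and tested probe sets kept. Figures were drawn with matplotlib 3.10.9.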

Additional observations from a re-analysis of the deposited data

How the results depend on the processing

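The number of P450s past the threshold stayed at 0 under all 13 alternatives, and those with a mean difference of at least 2-fold and the same sign in both array pairs numbered 2 without a filter and 0 under the other 5 alternatives run. For the glutathione transferases 1 passed, GSTU25, under the deposited scaling and with the array pair as a replicate block, and 0 to 1 passed with 1 array left out, where the genotype with 1 array is assumed to vary like the other. By the same size rule there was 1 transferase with a pseudocount of 16 and 0 with the filter on all 4 arrays, which fewer probe sets pass. The P450 median was 0.12 under the deposited scaling (-0.28 relative to the shift of 0.40 of all tested probe sets) and the transferase median 0.60 (0.20 relative to it). Without 1 array in turn the medians ran from -0.32 to -0.22 for the P450s and from -0.089 to 0.40 for the transferases.

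Among all tested probe sets 11 were higher and 30 lower. Higher and lower calls numbered 2 and 12 without a filter, 59 and 36 under the deposited scaling, 23 and 49 with median centring and 177 and 214 with the array pair as a replicate block. Higher calls fell to 7 with the filter on all 4 arrays. Without 1 array in turn, 48 to 138 were higher and 55 to 119 lower. Of all calls 26.8% were higher as reported and 62.1% under the deposited scaling. The cause of these changes was not tested.

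Signs of small differences turned under the deposited scaling, to 0.21 for CYP71B5, 0.029 for GSTU27, 0.063 for CYP71B34 and 0.17 for CYP71B37, all below the shift of 0.40. Without 1 array in turn differences ran from -0.36 to 0.57 for CYP84A4, from -0.23 to 0.49 for GSTL3, from -0.52 to 0.18 for CYP71B5, from -0.76 to 0.032 for CYP71B34, from -0.041 to 0.38 for CYP71B35, from -0.52 to 0.61 for GSTU20, from -0.31 to 0.80 for GSTF4, from -0.16 to 0.53 for GSTU26 and from -0.18 to 0.19 for GSTU18. GSTU22 ran from 0.39 to 1.88 without 1 array. Of the other members, GSTU25, GSTU16, CYP71B6, CYP71B28 and CYP71B29 kept their sign under every alternative that gave a value. The block changed no other call among the members. Leaving out an array was not run for the 2-fold counts, which need both pairs.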

Other observations

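Related probe sets outside the naming rule were read after the members' values were known. A probe set shared by CYP71B19 and CYP71B20, which lie inside the longest CYP71B run, was at deposited signals of 278.7 and 307.9 in ein3 eil1, against 127.5 and 137.9 in WT. Both mutant arrays were above both WT arrays, opposite to the sign of most tested CYP71B members, with a difference of 0.71 (SE 0.31, limma adjusted p = 0.813) and 1.09 and 0.32 within the array pairs. This signal cannot be assigned to either gene. ATGSTF13, a phi class transferase annotated with a species prefix, was dim, at 5.6 and 17 in ein3 eil1 and 2.3 and 2.1 in WT. CYP718 was near the bottom of every array, at 1.5 and 1.8 in ein3 eil1 and 1.5 and 2.9 in WT.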
